A study of Mus musculus with 76 samples.

Results

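The galectin gene Lgals7 was followed here together with 8 genes of mesothelial and epithelial cells in visceral white adipose tissue (WAT) and liver of Fnip2 knock-in mice. The 9 members, Lgals7, Upk3b, Upk1b, Msln, Lrrn4, Wt1, Krt8, Krt18 and Krt19, were chosen by name after their levels in these same WAT libraries had been seen. They are 9 of the 18964 entries of the WAT table, and 7 of them are among the 16775 entries of the liver table. Lgals7 and Upk1b were not analysed in liver, whose table holds genes with at least 10 reads over its libraries. Because the choice used the genotype contrast in WAT, the WAT values of the members are a description and carry no test.

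All mice were female C57BL/6 animals with free access to standard chow, and the labels of these samples give no age. Fnip2 C/C mice carry a T-to-C change engineered by CRISPR into the 3′UTR of Fnip2, a binding partner of folliculin, and Fnip2 T/T mice carry the ancestral T. The edited allele also holds a neighbouring G-to-C change that removes the PAM of the guide, so the groups, written C/C and T/T from here on, differ at both bases. Neither base can be read from gene counts, so the genotype of a library was taken from its label. There were 4 C/C and 5 T/T WAT libraries and 5 livers of each genotype, and 6 of the mice gave both tissues. Libraries were made by a 3′ end protocol in which reads come from the ends of polyadenylated transcripts. Levels of different genes can thus be set side by side without a length term.

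Mesothelium is the thin epithelial sheet that lines the body cavities and covers visceral organs, the visceral fat pads included. Msln encodes mesothelin, a surface protein of this sheet, Wt1 a transcription factor of mesothelium and its precursors, Upk3b a uroplakin made by mesothelium, and Lrrn4 a leucine-rich repeat membrane protein used as a mesothelial marker. Krt8, Krt18 and Krt19 encode the keratins of simple epithelia, mesothelium included. Upk1b encodes a tetraspanin best known from the plaques of the bladder urothelium, and Lgals7 encodes galectin-7, a sugar-binding protein of stratified epithelia.

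The WAT libraries held 4180209 to 4629269 reads in C/C and 4336514 to 6277644 in T/T, and the livers held 5583041 to 7523200. Of 12798 genes tested in WAT, 4111 (32.1%) passed an adjusted p of 0.05 by limma, of which 1930 (15.1% of those tested) were higher in C/C. Every C/C library lay above every T/T library for 12.2% of the genes. In liver, 0 of 11710 genes (0%) passed by limma, edgeR or DESeq2, with 231, 249 and 225 at an unadjusted p under 0.05. Fnip2 itself had a log2 fold change of -0.27 ± 0.35 (SE) in WAT, with an adjusted p of 0.58 by limma. In liver its log2 fold change was 0.63 ± 0.23 (SE) with overlapping libraries. There the unadjusted p was 0.0148 by limma, and Fnip2 did not pass after adjustment. The RNA numbers of the WAT samples were even in every C/C mouse and odd in every T/T mouse, so genotype and whatever went with that numbering cannot be told apart in WAT. The WAT library of C/C mouse 593 stood apart in ovarian granulosa, theca and luteal markers, whose summed level was 26239 there, against 108 to 123 in the other C/C libraries and 71.4 to 157 in T/T. Its summed adipocyte markers were the lowest of the 9 WAT libraries, at 128260.

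Promoter sequence is shown, as background only, for the members in which a searched motif was found. RefSeq promoters on GRCm38.p6, reaching from 250 bases before to 50 after a gene's start, were at hand for 5 of the 9 members, Lgals7, Upk3b, Lrrn4, Krt8 and Krt18, and the labels name GRCm39 as the build of the counts. Both strands were searched for the TATA box (TATAAA), the GC box (GGGCGG), the NF-Y site (CCAAT), the TEAD motif (GGAATG), the AP-1 motif (TGANTCA) and the motif of WT1 and EGR factors (GCGNGGGCG). The capitals below mark the match in a stretch of 30 bases read along the gene's own strand.
Upk3b, chr5:136038246-136038275, plus strand, TEAD motif on the opposite strand: aggaacggaCATTCCgagctggggaagaca
Lrrn4, chr2:132881041-132881070, minus strand, TEAD motif: gggctggagctgGGAATGccaggtctatgg
Lgals7, chr7:28864177-28864206, plus strand, GC box: cagtgtctgacaGGGCGGtaggggtatgaa
Krt8, chr15:102004326-102004355, minus strand, TATA box: ggcctcttctttTATAAAgggccttcgctg

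The TEAD letters stood in the promoters of Upk3b and Lrrn4, and in 14.6% of all 27025 promoters. The GC box stood in that of Lgals7 and in 35.9% of all promoters, and the TATA box in that of Krt8 and in 14.2%. None of the 5 promoters held the CCAAT, AP-1 or WT1 and EGR letters, which 37.9%, 7.93% and 5.55% of all promoters held. Such matches are a description of letters in this window. The TATA letters shown for Krt8 begin 1 base before the gene's start and so span it. The TATA box of Krt8 was also matched on the opposite strand, in letters that overlap the match shown. Krt8 and Krt18 are neighbours on chromosome 15, and Lgals7 lies next to another galectin gene, Lgals4, on chromosome 7. Of the 251 stretches of 50 bases in the last 300 bases of each member's longest coding transcript (GENCODE vM21), 0 were shared with a transcript of another gene.

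Lgals7 was the member whose WAT libraries separated by genotype. The normalized counts of Lgals7 were 57.6, 109.5, 135 and 272 in C/C mice 590, 593, 599 and 638. In T/T mice 607, 608, 609, 657 and 658 they were 18.1, 5.84, 7.81, 28.8 and 30.3. The lowest C/C library thus lay above the highest T/T library, and Lgals7 was the only member of the 9 without overlap. Every C/C library lay above every T/T library for 12.2% of all genes tested, about the share that 1 of 9 members makes, and nothing is read from the count. Means were 144 ± 91.4 (SD, n = 4) and 18.2 ± 11.4 (SD, n = 5), and on the log2(value + 1) scale the fold change was 2.96 ± 0.52 (SE). The reads behind these values were few, 523 over the C/C libraries and 104 over the T/T libraries. Among mice numbered under 610 the log2 difference was 3.20, with 3 mice in each genotype. Among those numbered over 630 it was 3.16, with 1 and 2 mice. Neither series overlapped, which follows from the lack of overlap over all WAT libraries. In bulk tissue, fewer cells of a type and less RNA per cell cannot be told apart.

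The log2 fold change of Lgals7 was 3.01 ± 0.60 (SE) without C/C mouse 593, the library with ovarian markers. Of the 8 members tested in WAT, Lgals7 was the one past the adjusted p of 0.05, against 32.1% of all genes, and since the choice of members used this contrast nothing is read from that count. Among the 8, 7 had a positive log2 fold change, and the median was 0.74 against 0.02 over all genes tested. For the same reason nothing is read from these signs or this median. Krt18 and Krt19 had positive values but lower mean counts in C/C, and turned negative by edgeR and DESeq2.

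**Figure D1:**
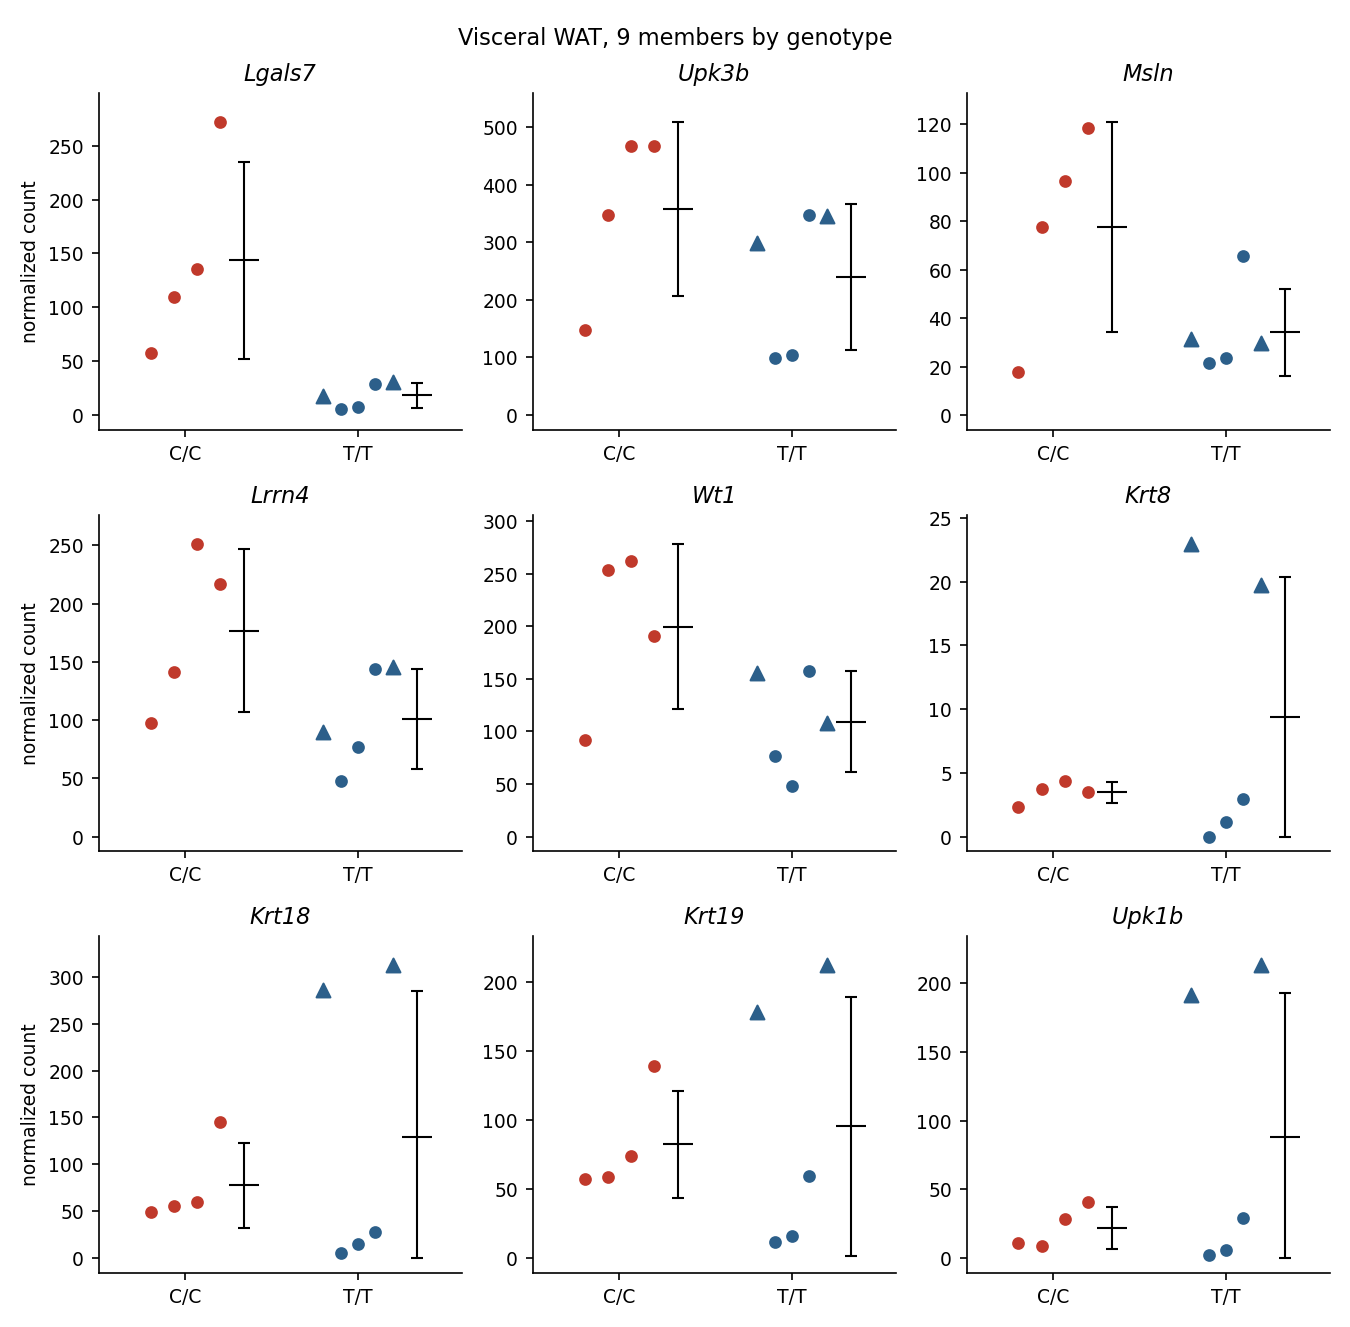
Normalized counts (linear axes from 0) of the 9 members in visceral WAT by genotype, 1 point per mouse, with the mean and SD beside each group (SD bars cut at 0). Triangles mark T/T mice 607 and 658, which hold the highest values of Krt8, Krt18, Krt19 and Upk1b, while Lgals7 is the only gene whose groups do not overlap.

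The genes best known from mesothelium, Upk3b, Msln, Lrrn4 and Wt1, had higher means in C/C WAT with overlapping libraries. The normalized counts of Msln were 17.6, 77.7, 96.5 and 118 in C/C mice 590, 593, 599 and 638, and 31.2, 21.4, 23.4, 65.4 and 29.6 in T/T mice 607, 608, 609, 657 and 658. C/C mouse 590 had the lowest mesothelin level of all 9 libraries, and the other 3 C/C mice lay above every T/T mouse. Its mean was 77.5 ± 43.2 (SD, n = 4) against 34.2 ± 17.9 (SD, n = 5), and the log2 fold change was 0.99 ± 0.50 (SE).

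For Wt1 the 4 C/C values, in the same order of mice, were 91.7, 254, 262 and 191, and the 5 T/T values were 155, 76.9, 48.0, 158 and 108. Mouse 590 was the only C/C animal inside the T/T range of Wt1, and the log2 fold change was 0.88 ± 0.38 (SE). Without C/C mouse 593, the library with ovarian markers, that fold change was 0.73 ± 0.42 (SE). Lrrn4 had 97.6, 141, 251 and 217 in C/C and 89.4, 47.7, 77.0, 144 and 146 in T/T. Mice 590 and 593 overlapped the upper T/T libraries for this gene, and the log2 fold change was 0.83 ± 0.35 (SE).

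Upk3b was the most abundant member in WAT, with 148, 348, 467 and 467 in C/C and 299.5, 99.2, 104, 348 and 346 in T/T. Its values in T/T fell into a low pair, mice 608 and 609, and a group of 3 at about the level of C/C mouse 593. The log2 fold change of Upk3b, 0.66 ± 0.46 (SE), was the smallest of these 4 genes. Leaving out 1 mouse at a time moved these values in both directions. Upk3b had its lowest log2 fold changes without T/T mouse 608 or 609, 0.40 and 0.41, and its highest without C/C mouse 590, 1.03. For Msln they ran from 0.69 without C/C mouse 638 to 1.58 without mouse 590. For Wt1 they ran from 0.63 without T/T mouse 609 to 1.22 without mouse 590, and for Lrrn4 from 0.59 without T/T mouse 608 to 1.08 without mouse 590.

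Within the 2 series of mouse numbers, the log2 differences in WAT were 1.01 and 1.40 for Msln, 1.13 and 0.54 for Wt1, 1.12 and 0.58 for Lrrn4, and 0.98 and 0.43 for Upk3b, under 610 first. All 4 genes were higher in C/C in both series. The members were chosen on these same libraries, so this is a description and gives no support. In the series under 610 the genotypes overlapped for Upk3b, Msln and Wt1 and not for Lrrn4. In the series over 630, which has 1 C/C mouse, that mouse lay above both T/T mice for each of the 4.

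The keratins and Upk1b followed another pattern, with the widest spread among the T/T mice. Krt18 had 49.4, 55.2, 59.6 and 145 normalized counts in C/C mice 590, 593, 599 and 638, and 286, 4.86, 14.5, 27.8 and 312 in T/T mice 607, 608, 609, 657 and 658. Every C/C library lay between the 2 high and the 3 low T/T libraries. The highest T/T value was 64.2 times the lowest, whereas in C/C the ratio was 2.94. The log2 fold change of Krt18 was 0.58 ± 1.20 (SE), although the mean was lower in C/C, 77.4 ± 45.4 (SD, n = 4) against 129 ± 156 (SD, n = 5). Its direction therefore depended on the scale of the mean.

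Krt19 had 57.6, 59.0, 73.7 and 139 in C/C and 178, 11.7, 15.6, 59.5 and 212 in T/T, again with mice 607 and 658 at the top. Upk1b had 10.6, 8.42, 28.2 and 41.0 in C/C and 191, 1.95, 5.58, 28.8 and 213 in T/T. The tetraspanin thus spanned a 109-fold range among T/T mice, the widest of the members with reads in every library. Log2 fold changes were 0.51 ± 0.83 (SE) for Krt19 and -0.64 ± 1.27 (SE) for Upk1b, which was the only tested member with a negative value.

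Krt8, the usual partner of Krt18 in keratin filaments, was near the limit of detection in WAT and was left untested for its low mean. Its normalized counts were 2.35, 3.74, 4.34 and 3.51 in C/C and 23.0, 0, 1.12, 2.97 and 19.7 in T/T. Mice 607 and 658 again held the top values, with 28 and 26 reads. The 0 of mouse 608 allows up to 0.635 reads per 1000000 reads of its library (RPM), counting error only.

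Without T/T mice 607 and 658, a choice made after their values were seen, the log2 fold changes became 2.36 ± 0.53 (SE) for Krt18, 1.74 ± 0.51 (SE) for Krt19 and 1.20 ± 0.78 (SE) for Upk1b. In the same fit Lgals7 had 3.36 ± 0.56 (SE), Wt1 1.14 ± 0.43 (SE), Upk3b 1.08 ± 0.48 (SE), Lrrn4 1.02 ± 0.40 (SE) and Msln 0.96 ± 0.60 (SE). The keratins and Upk1b moved by more than 1 log2 unit, and the 4 mesothelial genes and Lgals7 by less than 0.5. Mice 607 and 658 held the highest T/T values of Krt18, Krt19 and Upk1b. The rise of these genes thus followed from the choice, and nothing is read from it.

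**Figure D2:**
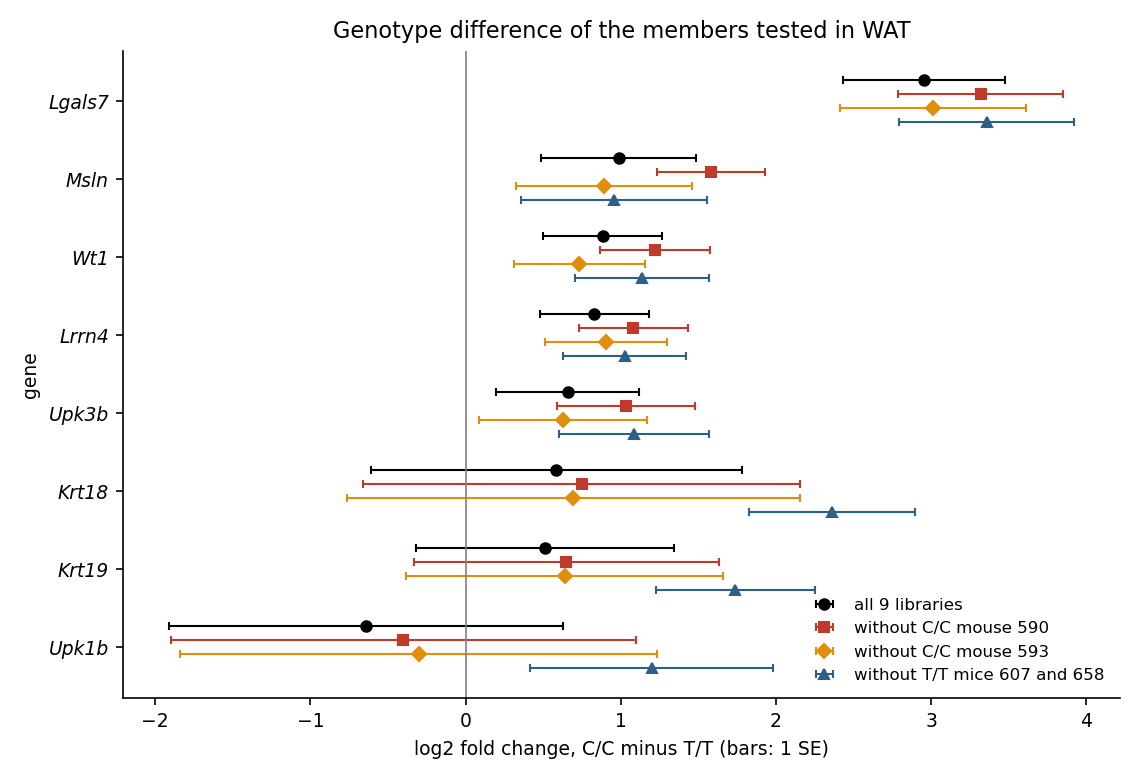
Log2 fold change (C/C minus T/T, horizontal axis, bars 1 SE) of the 8 members tested in WAT, with all 9 libraries and without mouse 590, mouse 593, or mice 607 and 658. Lgals7 lies between 2.96 and 3.36 in all 4 fits, and Krt18 goes from 0.58 to 2.36 without mice 607 and 658, its highest T/T libraries.

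The same 2 T/T libraries were high in genes of the urothelium and in some other epithelial genes. Upk1a and Upk3a, which with Upk2 and Upk1b build the urothelial plaque, are not members. Upk1a had 154, 90.8, 175 and 602 normalized counts in C/C and 422, 6.81, 11.2, 9.92 and 480.5 in T/T. Upk3a had 80.0, 22.5, 82.4 and 162 in C/C and 496, 0.973, 2.23, 4.96 and 532 in T/T. Of the 4 uroplakin genes listed, 3 were tested in WAT, and 0 passed by limma, edgeR or DESeq2 with or without adjustment. Their summed level ran from 136 to 925 in C/C and from 8.76 to 1195 in T/T, with none of the 3 at 0 in any library. C/C mouse 638 held the 925, against 1051 and 1195 in T/T mice 607 and 658, and had the highest Upk1a of the WAT libraries. Even the lowest C/C sum, 136, lay above the 8.76 to 16.9 of the other 3 T/T mice. Other keratins were divided. Krt7 was at 407 and 403, Krt5, a basal keratin, at 196 and 166, and Krt20 at 84.5 and 68.2 in mice 607 and 658, against at most 78.3, 1.98 and 0.992 in the other 3 T/T mice. Krt14, the usual partner of Krt5, ran from 1.98 to 6.82 over the 5 T/T mice, Krt15 from 0.973 to 3.79, Krt10 from 1.12 to 10.7 and Krt80 from 11.7 to 18.1, so these keratins did not share the high values. The part that urothelial or other epithelial tissue in a sample had in the keratin and Upk1b values was not tested.

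Over the 9 WAT libraries the members fell loosely into these same blocks. Pearson r of log2(value + 1) was 0.76 to 0.90 for the 6 pairs among Upk3b, Msln, Lrrn4 and Wt1, and 0.92 to 0.97 for the 3 pairs among Krt18, Krt19 and Upk1b. The latter 3 genes had r of 0.74 to 0.96 with Upk1a, Upk2 and Upk3a, and the mesothelial 4 had 0.18 to 0.66 with them. Between the blocks, the mesothelial 4 had r of 0.20 to 0.80 with Krt18, Krt19 and Upk1b, so the ranges within and between blocks overlapped. Lgals7 had r of 0.77 to 0.87 with the mesothelial 4 and 0.25 to 0.56 with Krt18, Krt19 and Upk1b. These correlations are descriptions over 9 points (n = 9) that share genotype groups, dissections and libraries.

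Upk3b and Krt19 are the pair that most bridged the blocks, with r of 0.80, which fell to 0.28 once mice 608 and 609, the farthest from the median of Upk3b, were left out. Without C/C mouse 638 and T/T mouse 608, the farthest from the median of Lgals7, its r went from 0.87 to 0.77 with Lrrn4, from 0.78 to 0.80 with Wt1, from 0.78 to 0.62 with Msln and from 0.77 to 0.61 with Upk3b. After each library was set against its genotype mean, Lgals7 had r of 0.94 with Upk3b, 0.90 with Lrrn4, 0.77 with Msln and 0.69 with Wt1. On that scale Lgals7 also had r of 0.70 to 0.80 with Krt18, Krt19 and Upk1b.

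**Figure D3:**
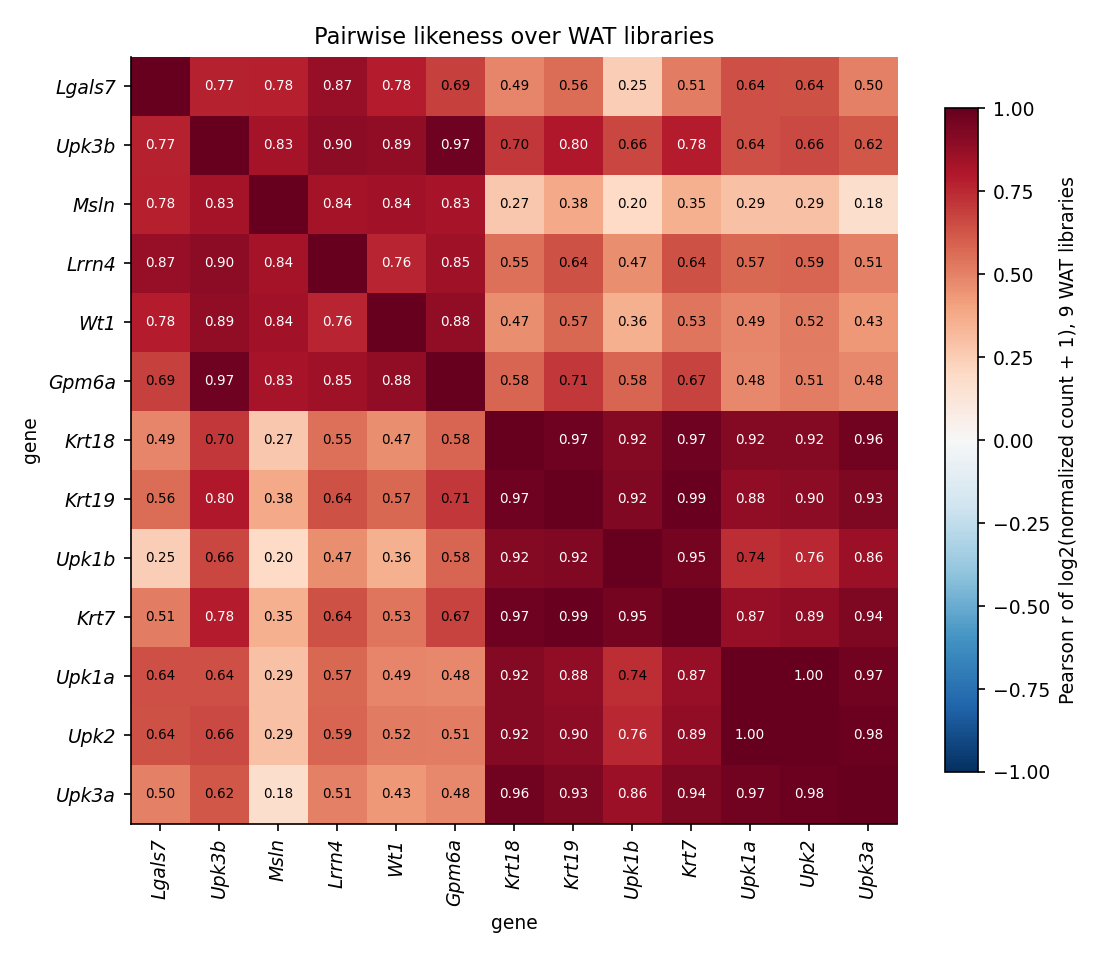
Pearson r of log2(normalized count + 1) over the 9 WAT libraries for 8 members and 5 other genes (Gpm6a, Krt7, Upk1a, Upk2, Upk3a), with the value in each cell. Upk3b, Msln, Lrrn4, Wt1 and Gpm6a form a block with Lgals7 beside it, and Krt18, Krt19, Upk1b and Krt7 a second block with the uroplakins.

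Among 12797 other genes tested in WAT, the gene most like Upk3b was Gpm6a, a membrane glycoprotein gene on the list of other mesothelial genes, with r of 0.97 over the 9 libraries. It ranked first also without mouse 593. The genes most like Lgals7 were Gm44224, with r of 0.97, and Zfp874b and Lrrk1, with 0.96 each, and no member was among the first 10. In the order of likeness to Lgals7, Lrrn4 ranked 171, Wt1 770, Msln 805 and Upk3b 865. Within the genotypes Upk3b ranked 6 in that order.

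Of the 22 other mesothelial genes listed, 17 were tested in WAT and 4 passed, 2 in each direction, or 23.5% against 32.1% of all genes. Bcam, a laminin receptor, was higher in C/C, with 548, 502, 766 and 1148 against 229, 285, 253, 149 and 280.4 and no overlap (log2 fold change 1.58 ± 0.26 SE, adjusted p = 0.00137, limma). C3, the central complement component, had a log2 fold change of 0.84 ± 0.26 SE (adjusted p = 0.0281, limma), with the T/T library of mouse 658 inside the C/C range.

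Cldn15, a tight junction claudin, was lower in C/C, with 149, 75.8, 131 and 110.1 against 207, 204, 227, 309 and 222 (log2 fold change -1.02 ± 0.22 SE, adjusted p = 0.00432, limma). Podxl, a sialomucin also made by endothelium, was lower too (-1.90 ± 0.43 SE, adjusted p = 0.00564, limma), and its log2 fold change lay between -2.24 and -1.53 in 20 alternatives, past the threshold in all but the fit without mice 607 and 658, which has 2 fewer samples. Gpm6a had 0.47 ± 0.44 SE with an adjusted p of 0.44 by limma. The median over the 17 genes was 0.49, against 0.02 over all genes, and Bcam, C3 and Podxl are also made by cells other than mesothelium.

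Genes near Lgals7 in family or in tissue did not move as one set in WAT. None of the 8 galectin family genes tested passed by limma or edgeR and 1, Lgals3bp, by DESeq2, with 2 at an unadjusted p under 0.05 by each tool, and the median log2 fold change was -0.18 by limma. Of all genes, 32.1% passed by limma. Lgals3bp, a galectin-3 ligand, had 0.61 ± 0.24 SE (adjusted p = 0.0662) and Lgals3 had -0.84 ± 0.34 SE (adjusted p = 0.0723), both by limma. Of 7 other stratified epithelial genes tested, Krt15 and Sbsn passed, both higher in C/C (28.6% called, against 32.1% of all genes).

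Krt15, a keratin of basal cells, had 1.18, 25.3, 92.1 and 66.8 in C/C mice 590, 593, 599 and 638 and 0.973 to 3.79 in T/T (log2 fold change 3.13 ± 0.94 SE, adjusted p = 0.023, limma). The lowest C/C library, mouse 590, lay inside the T/T range. Sbsn, encoding suprabasin, had 0.78 ± 0.24 SE (adjusted p = 0.027, limma). Among 12 genes listed as p53 targets, a group to which human galectin-7 is assigned, 4 were higher and 4 lower in C/C (66.7% called, against 32.1% of all genes), with Aen at 1.24 ± 0.34 SE (adjusted p = 0.0149) and Cdkn1a at -1.09 ± 0.24 SE (adjusted p = 0.00555), both by limma.

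Among 10 other simple epithelial keratin and junction genes tested in WAT, 1 passed (10%, against 32.1% of all genes), Jup, the plakoglobin gene, which was lower in C/C (-1.33 ± 0.38 SE, adjusted p = 0.0187, limma). Cdh1, E-cadherin, was at 112 and 102 in mice 607 and 658 and at 0 to 0.992 in the other 3 T/T mice. Adipocyte markers were lower for 6 of 12 genes and higher for 0 (50% called, against 32.1% of all genes), with a summed level of 128260 to 357110 in C/C and 277650 to 490350 in T/T. The part of adipocyte content in the levels of Lgals7 and the mesothelial genes was not tested.

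In liver the order of the members was another one, with Krt18 and Krt8 at the top. On the RPM scale, which allows the tissues to be set side by side although their tables were normalized separately, Krt18 had 176 and 182 in C/C and T/T liver and 16.1 and 29.1 in the WAT groups. Krt8 had 27.8 and 25.7 in liver and 0.737 and 2.13 in WAT. The keratin pair is the filament system of hepatocytes, and for both genes every liver library lay above every WAT library, while genotype groups overlapped within each tissue.

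The mesothelial genes had the opposite order. Upk3b had 75.6 and 53.9 RPM in C/C and T/T WAT and 0.427 and 0.859 in liver, and Wt1 had 42.6 and 24.7 in WAT and 0.369 and 0.535 in liver. Lrrn4 had 37.1 and 22.4 in WAT and 0.224 and 0.551 in liver, and Msln had 16.4 and 7.69 in WAT and 0.168 and 0.214 in liver. For each of the 4, every WAT library lay above every liver library, and neighbouring genotype groups overlapped. Krt19 had 17.2 and 21.5 in WAT and 0.961 and 1.22 in liver, with the same order of tissues.

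**Figure D4:**
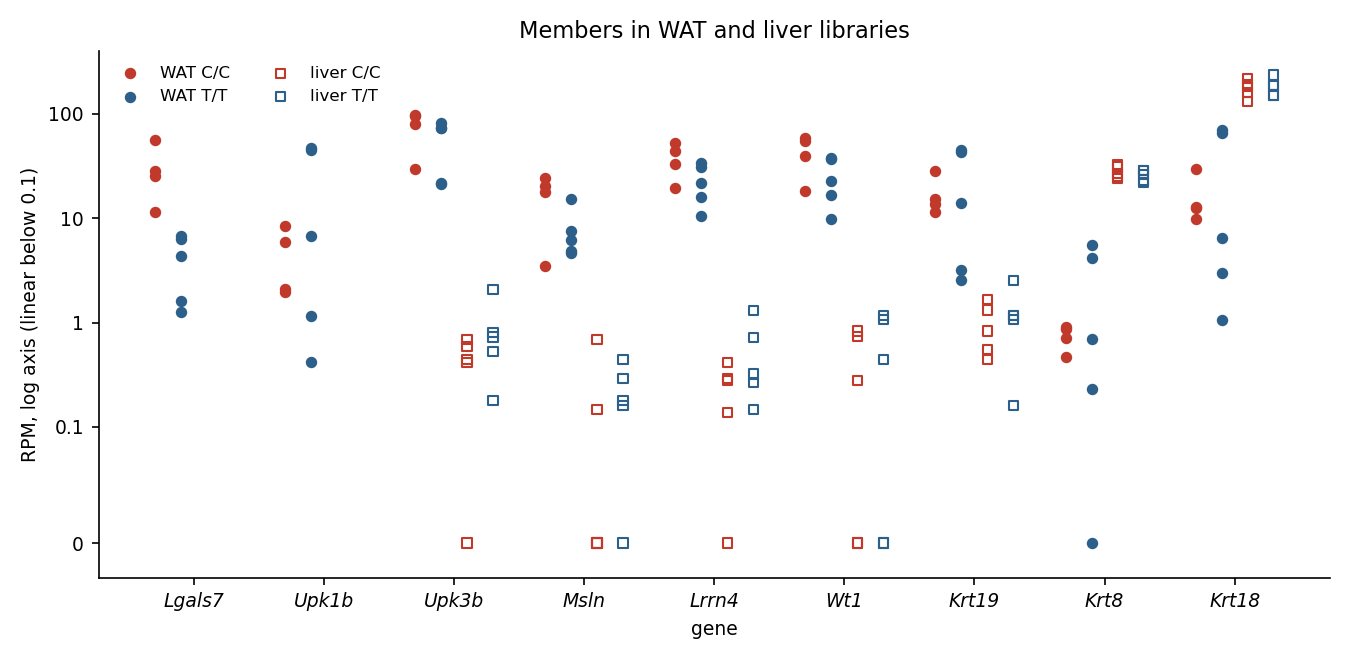
RPM (reads per 1000000 reads of the library, log axis, linear below 0.1) of the 9 members in WAT (filled circles) and liver (open squares) by genotype, 1 point per library. Krt8 and Krt18 are higher in liver, Upk3b, Msln, Lrrn4, Wt1 and Krt19 higher in WAT, and Lgals7 and Upk1b are shown in WAT alone.

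The choice of members did not use liver, and there the genotypes were tested as the labels give them. The liver table lists its 5 even RNA numbers before its 5 odd ones, whereas the WAT table lists C/C before T/T, and the labels put both genotypes in each liver block. If those blocks were the genotypes, every liver difference given here would change its meaning, and this could not be settled from gene counts. By the labels, the even block holds mouse 590, C/C also in WAT, and mice 608 and 657, T/T also in WAT. The odd block holds mouse 638, C/C also in WAT, and mice 607 and 658, T/T also in WAT. The blocks could thus be the genotypes only if mouse numbers in the labels were wrong too. Krt18 had 1246, 862, 1438, 1108 and 1319 normalized counts in C/C mice 590, 591, 592, 638 and 639, and 1336, 978, 1269, 1026 and 1505 in T/T mice 607, 608, 657, 658 and 659. The groups overlapped throughout, with a log2 fold change of -0.04 ± 0.15 (SE) and an adjusted p of 1.00 by limma. Livers of mice 607 and 658, whose WAT stood apart for Krt18, lay inside the range of the other livers. Krt8 had 211, 202, 159, 186 and 183 in C/C and 157, 185, 179, 158 and 184 in T/T, with a log2 fold change of 0.12 ± 0.12 (SE) and an adjusted p of 1.00 by limma.

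The other 5 members were near the limit of detection in liver. Upk3b had 15 reads over the C/C livers and 29 over the T/T livers, Wt1 had 13 and 17, Lrrn4 8 and 18, Msln 6 and 7, and Krt19 34 and 42. All 5 had overlapping groups, and differences of genotype in them were not detectable at this depth. Wt1 had 0 reads in 4 livers, C/C mice 591 and 639 and T/T mice 607 and 658, which allows up to 0.399 to 0.482 RPM, counting error only. These 4 had odd RNA numbers, as did C/C mouse 638, whose liver had 5 reads of Wt1.

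Exact two-sided permutation tests of the difference in mean log2 value, 1 for each of the 7 members in liver over 252 groupings, gave p = 0.175 for Lrrn4, 0.183 for Krt8, 0.302 for Upk3b, 0.444 for Msln, 0.762 for Wt1, 0.833 for Krt18 and 0.841 for Krt19. None of the 7 was under 0.05 before any adjustment. The log2 fold changes of Upk3b, Msln, Lrrn4 and Wt1 in liver were -0.73 ± 0.54, -0.44 ± 0.58, -0.80 ± 0.52 and -0.26 ± 0.72 (SE, n = 5 and 5), where all 4 were positive in WAT. The difference between the tissues was not tested.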

How the data were processed

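QuantSeq 3′ FWD libraries of mouse liver and visceral WAT, with 250 ng (liver) or 500 ng (WAT) of input RNA, were compared between Fnip2 C/C mice and T/T mice. The submitters' processing notes name FastQC 0.11.9, HISAT2, SAMtools 1.12, HTSeq, DESeq2 and GRCm39. The authors deposited 1 table per tissue, and its signal values are read counts divided by 1 size factor per library. The 76 run samples, 4 per mouse, were grouped by the genotype and mouse in their labels. The WAT table's 1 column that no label describes was not used. Whole reads came back for 100% of values, within 1e-06 of a whole number. Replicates differed by more than counting error (chi-square per degree of freedom at least 14.2 in WAT and 7.63 in liver). The recovered reads count reads, not molecules.

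For either tissue by itself, limma 3.58.1 (R 4.3.3, trend and robust options) was run on log2(value + 1), over genes with a mean of at least 10, and an adjusted p (Benjamini-Hochberg) under 0.05 was called. Fold changes are C/C over T/T. The fit was tested on simulated data. edgeR 4.0.16 and DESeq2 1.42.0 on the recovered reads, other pseudocounts, filters, scalings, library weights, a term for mouse number series and leaving out each mouse were alternatives. Beside the members, the genes named were those of each list with the lowest unadjusted p, those whose level was needed beside a member, and the genes most like Lgals7 and Upk3b. Members and lists were chosen with earlier results of these data known. Motifs were searched in RefSeq promoters of GRCm38.p6.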

Additional observations from a re-analysis of the deposited data

Results flagged for a closer look

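Among 98 groups of libraries examined for a library far from the others of its group, 7 were found, and chance gives about 1 in 20. The summed level of ovarian markers was 26239 in the WAT of Fnip2 C/C mouse 593, against 108 to 123 in the other Fnip2 C/C libraries, and that of oocyte markers was 314 there, against 30.6 to 43.3. Without this mouse the log2 fold change in WAT was 3.01 for Lgals7, 0.89 for Msln, 0.73 for Wt1, 0.90 for Lrrn4 and 0.63 for Upk3b. Pancreatic acinar markers summed to 235 in the WAT of Fnip2 C/C mouse 599, against 107 to 115.

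In liver, Upk3b was at 0 in Fnip2 C/C mouse 591, against 2.73 to 4.51 normalized counts in the other Fnip2 C/C livers, and the other mesothelial genes, a sum led by C3, were at 25942 in the same liver against 31859 to 33903. The stratified epithelial genes summed to 446 in Fnip2 T/T mouse 659, against 583 to 621, and oocyte markers to 4.22 in Fnip2 C/C mouse 639, against 0.902 to 1.03.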

How the results depend on the processing

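The log2 fold change of Lgals7 lay between 2.36 and 3.36 over the 20 WAT alternatives. The members were chosen on this contrast, so this range and the counts of members past the threshold describe the fits and give no support. The count was 1 with all libraries and in 16 of the alternatives, 2 with a term for mouse number series (with Lrrn4) and with DESeq2 (with Msln), 3 without mice 607 and 658 (with Krt18 and Krt19), an alternative chosen after seeing the data, and 1 to 4 when each mouse was left out. The 4 came without Fnip2 C/C mouse 590, with Lrrn4, Msln and Wt1. Over all WAT genes, 1932 were called without mice 607 and 658 in place of 4111, a fit that has 2 fewer samples. Other mesothelial genes called in WAT were 7 with the mouse series term, and 3 to 7 when each mouse was left out, with the 7 reached without mouse 590. C3 lost its call in 6 of 20 alternatives and Sbsn in 8.

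Upk3b, Msln, Lrrn4 and Wt1 stayed positive in all 20. These alternatives refit the libraries on which the members were chosen, so the steady sign gives no support. The sign of Krt18 and of Krt19 turned negative with edgeR (-0.79 and -0.26), DESeq2, library weights and without Fnip2 T/T mouse 608, and that of Upk1b turned positive without mouse 607, mouse 658 or both (0.03, 0.07 and 1.20). The cause was not tested. In liver no gene was called in any of 21 alternatives, a term for even or odd RNA number, also chosen after seeing the data, included. No paired analysis was possible because the genotypes compared within a tissue share no mouse number. Depth limits the members with few reads, Krt8 in WAT and 5 members in liver.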
